A study of Caenorhabditis elegans with 4 samples.

Results

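The genes described here were expressed in wild type L1 larvae, the first larval stage, of Caenorhabditis elegans, a nematode. They were at about 50% or less of that level in larvae of a met-1 mutant strain on mes-4 RNAi, a combination directed at 2 enzymes that methylate histone H3 at lysine 36 (H3K36). The members were selected on the measured values themselves, raw counts given as counts per 1000000 counts of the library total (CPM). A gene had to reach at least 10 CPM in both wild type libraries, and the higher of its 2 values in the mutant larvae could be at most 0.55 of the lower wild type value. Of 20392 gene identifiers, 7654 met the wild type level and 37 met both conditions, 0.483% of the 7654. Leaving out by name dhc-1, tyms-1, spd-5, drh-3, rrf-1, rrf-3, znfx-1, dcr-1, prg-1, sid-1, mex-6 and the fbx, col-, his-, ugt- and clec- families removed 8 of these 37 and left 29 members, 0.379% of the genes at the level. By the same numbers in the other direction, with the same names left out, 66 genes were higher, of which 17 were at the stated level in wild type.

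The 4 libraries came from 2 groups of 2. The wild type strain N2 was fed bacteria with the empty RNAi vector L4440, and strain GW1183, labelled met-1-/-, was fed bacteria for RNAi against mes-4. The second group is shown as met-1 mes-4(RNAi) in the plots and referred to as mutant larvae. In both groups the parents were raised on the RNAi bacteria for 60 to 65 h at 20 °C, and the larvae hatched without food for 18 h and were refed for 2 h 30 min. RNA came from whole larvae, so fewer cells of a type and less RNA per cell cannot be told apart. Strain, mutation and RNAi differed together between the groups and cannot be told apart either.

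In C. elegans, MET-1 and MES-4 are histone methyltransferases that place methyl groups on H3K36 in the bodies of transcribed genes. MET-1 acts along with transcription, whereas MES-4 can maintain the mark on genes that were expressed in the parental germline. Loss of MES-4 from the mother is known to leave the primordial germ cells of the larva unable to proliferate. Methylation of H3K36 was not analysed here.

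The libraries held 29081819 to 35106597 counts. The met-1 transcript was at 172.4 and 158.6 CPM in wild type and at 119.8 and 110.5 CPM in mutant larvae, and mes-4 was at 34.4 and 35.9 against 27.3 and 28.1 CPM. Both transcripts were therefore lower without overlap, as were 25.2% of the genes at the wild type level. They were far from absent, and neither met the ratio that defines the members. DESeq2 called met-1 lower (adjusted p = 0.0039) but did not call mes-4 (adjusted p = 0.337). The 11 germline markers, which included pgl-1, glh-1 and cgh-1, summed to 257.2 and 258.4 CPM in wild type and to 262.3 and 269.8 CPM in mutant larvae. The sum rests mostly on the abundant cgh-1, mes-3 and glh-1. Of the 11 markers 6 had a log2 fold change below 0, among them pie-1 at -0.91, nos-2 at -0.86, pgl-3 at -0.48 and gld-1 at -0.39. The others were above 0, with glh-1 at 0.41, glh-4 at 0.26, deps-1 at 0.22, mes-3 at 0.10 and nos-1 at 0.02. The median of the 11 markers was -0.04. Levels of pie-1 and nos-2 were low, at 0.68 to 1.89 and 0.20 to 0.93 CPM. None of the 11 was at 0 in any library (0 genes), and DESeq2 called 0 of them. The summed markers of intestine (3977 to 4509 CPM in wild type, 4039 to 4053 CPM in the other group), neurons, pharynx and hypodermis overlapped between the groups. Those of body wall muscle did too, at 6130 to 7360 against 7216 to 9372 CPM. Of the 6 muscle markers 0 had a log2 fold change below 0, and their median was 0.24. DESeq2 called 1 of 8 intestinal markers, the yolk protein gene vit-6, and 1 of 6 muscle markers, the myosin gene myo-3, and both were higher in mutant larvae (adjusted p = 2.06e-07 and 0.00263). The hypodermal marker rol-6 had no count in wild type replicate 2. Of the others sqt-3 and dpy-7 were higher in replicate 1 of both groups, and nhr-25, lin-26 and elt-3 in replicate 2. For sqt-3 the values were 49.8 and 10.2 CPM in wild type and 84.4 and 7.46 CPM in mutant larvae. The part of other cell types in the results was not tested.

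The members were not uniform in depth of reduction. Their mean in mutant larvae lay between 28.7% and 53.9% of the wild type mean, with a median of 41.1%. In 23 of the 29 it was at most 50%, and in the other 6 it was just above, which the ratio of 0.55 allows. The log2 fold change of the edgeR fit, mutant over wild type, ran from -1.85 to -0.94 with a median of -1.33. The difference was similar within each replicate number, with a median ratio of 0.404 between the replicate 1 libraries and 0.419 between the replicate 2 libraries. In the authors' deposited log2 values the same genes were lower by differences of -1.76 to -0.88. The members were chosen by this contrast, so these values carry no test. Over the whole table edgeR's quasi-likelihood test, fitted without a replicate block and with Benjamini-Hochberg adjustment, called 0 of 15008 genes lower (0%), and at an unadjusted p under 0.05 there were 1023 lower (6.82%) and 1162 higher (7.74%). DESeq2 called 288 lower (1.92%) and 367 higher (2.45%), and of the 7654 genes at the wild type level it called 251 lower (3.28%). Of those 7654 genes, 25.2% were lower without overlap between the groups, which the rule requires of every member. As the rule used this contrast, calls of the members follow largely from their choice and are no test of them. DESeq2 called all 29 members and edgeR 0, with all 29 at an unadjusted p under 0.05. Leaving out wild type replicates 1 and 2 and mutant replicates 1 and 2 in turn, DESeq2 called 19, 15, 23 and 21 of the 29. In what follows, "fell" and "rose" are used of non-members called by DESeq2.

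**Figure D1:**
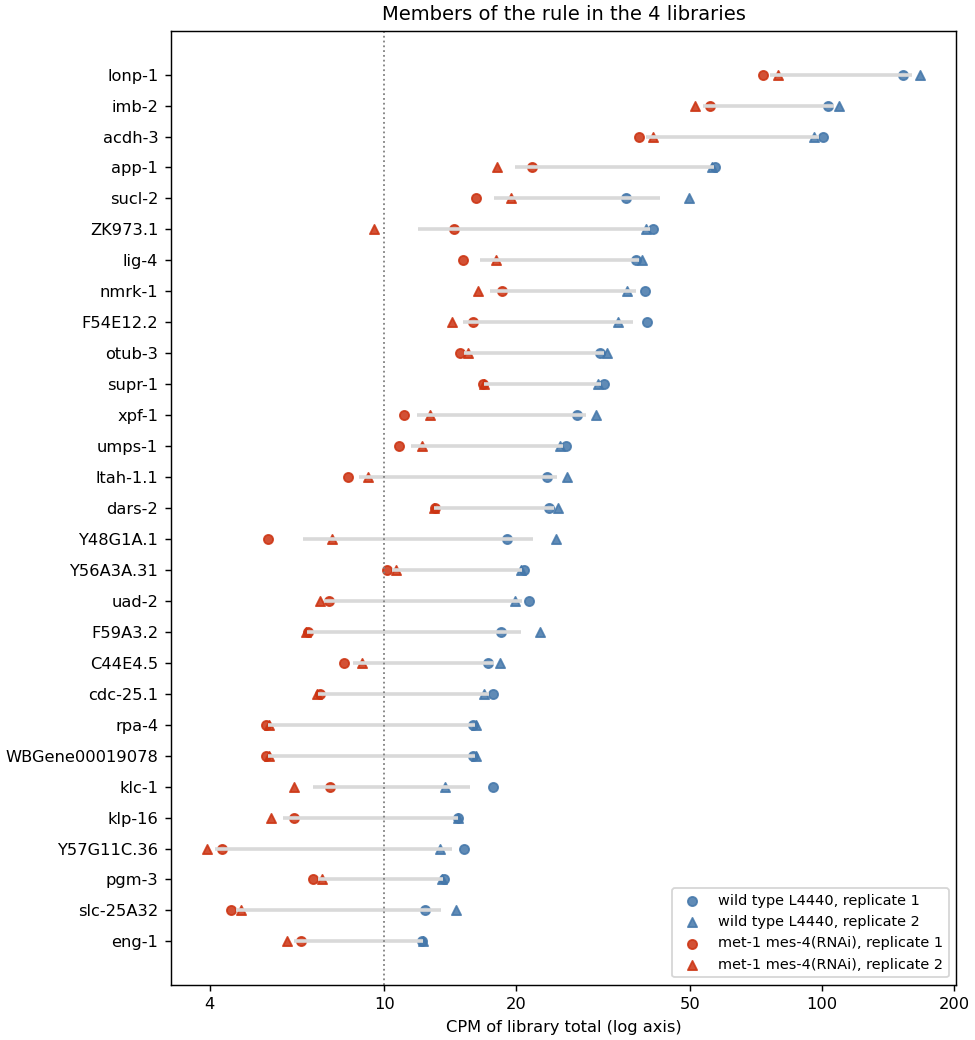
CPM of each member in the 4 libraries, on a log axis, ordered by the wild type mean; circles are replicate 1, triangles replicate 2, grey bars join the group means, and the dotted line marks 10 CPM. In every row the blue wild type points lie to the right of the red mutant points, as the rule requires, with the widest gap for Y57G11C.36 and ZK973.1.

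Peptidases and other protein turnover factors made up 4 members, at 35.2% to 48.0% of their wild type means. The gene app-1 encodes an X-prolyl aminopeptidase, which removes the first residue of peptides that carry proline in second place. It was at 57.01 and 56.09 CPM in the wild type libraries and at 21.8 and 18.1 CPM in mutant larvae, 35.2% of the wild type mean (log2 fold change -1.56, SE 0.13). Its ratio of 0.388 was met with wild type libraries that were nearly equal. The gene ltah-1.1 encodes a metalloprotease related to leukotriene A4 hydrolase, an aminopeptidase. It went from 23.5 and 26.1 CPM to 8.29 and 9.20 CPM. The mitochondrial Lon protease gene lonp-1, which degrades damaged proteins of the mitochondrial matrix, had the highest CPM of all members. It was at 153.1 and 167.6 CPM in wild type and 73.1 and 79.2 CPM in mutant larvae, so it stayed above the wild type level of most members. The otubain-type deubiquitinase gene otub-3 went from 31.1 and 32.3 CPM to 14.9 and 15.6 CPM.

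Beside the members, lists of related genes were counted, and members chosen by the same contrast are left out of each list's counts below 0 and medians. Genes that met the numbers of the rule but were left out by name are kept in the lists. Of all 15008 tested genes 48.5% had a log2 fold change below 0, with a median of 0.01, and of the 7654 genes at the wild type level 61.8% were below 0, with a median of -0.06. DESeq2 called 1.92% of the tested genes lower and 3.28% of those at the level, the shares to hold beside the calls in each list. Of the 18 aminopeptidase and dipeptidyl peptidase genes other than app-1, 13 were below 0 and the median was -0.25. DESeq2 called 4 of these lower and 0 higher, while edgeR called 0. The other falls were led by lap-1, a leucine aminopeptidase gene, from 234.6 ± 6.80 to 130.2 ± 10.03 CPM (SD, n = 2; DESeq2 adjusted p = 1.12e-07), and dpf-4, a dipeptidyl peptidase gene, from 113.1 to 61.3 CPM (DESeq2 adjusted p = 1.56e-06). With app-1 the list's lower calls numbered 5, and they were 3 without wild type replicate 1, 2 without wild type replicate 2, and 4 and 3 without mutant replicates 1 and 2.

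Members that act on DNA belong to repair by excision, by end joining and by single-stranded DNA binding. The gene xpf-1 encodes the nuclease subunit that cuts beside damaged bases in nucleotide excision repair. It was at 27.5 and 30.4 CPM in wild type and 11.07 and 12.73 CPM in mutant larvae. The gene lig-4 encodes DNA ligase IV, which seals breaks in non-homologous end joining, and went from 37.5 and 38.8 CPM to 15.2 and 18.0 CPM. The gene rpa-4 belongs to the family of replication protein A, which coats single-stranded DNA. It was at 15.99 and 16.20 CPM in wild type against 5.36 and 5.47 CPM, 33.7% of the wild type mean. Replicates of rpa-4 were nearly equal, and the groups were 2.97-fold apart. The identifier WBGene00019078 had the same counts as rpa-4 in all 4 libraries and no symbol or location in the annotation, so the 29 members hold 28 distinct measurements.

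Of the 45 tested DNA repair genes other than xpf-1 and lig-4, 42 were below 0, with a median log2 fold change of -0.45. DESeq2 called 11 of these 45 lower and 0 higher, and edgeR called 0. Among all tested genes DESeq2 called 1.92% lower, and among those at the wild type level 3.28%. The gene cku-80, which encodes a subunit of the Ku complex that holds broken ends for ligase IV, fell from 30.2 ± 0.18 to 17.3 ± 0.76 CPM (SD, n = 2; DESeq2 adjusted p = 6.42e-04). The gene fcd-2, a member of the Fanconi anaemia pathway for crosslink repair, fell from 46.9 to 29.5 CPM (DESeq2 adjusted p = 0.00269). Direct partners did not all pass. The other Ku subunit gene cku-70 was at 42.6 ± 4.08 and 40.0 ± 2.53 CPM, and ercc-1, whose product forms the nuclease with XPF-1, was at 28.2 ± 1.31 and 23.6 ± 2.02 CPM (DESeq2 adjusted p = 0.932 and 0.681). With xpf-1 and lig-4, the DESeq2 count of lower genes in the list went from 13 to 2, 1, 2 and 2 when wild type replicates 1 and 2 and mutant replicates 1 and 2 were left out in turn.

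Cell division and motor genes made up 3 members. The gene cdc-25.1 encodes a phosphatase that activates the mitotic kinase CDK-1, and is known from the proliferation of germ cells and the divisions of the embryo. It was at 17.7 and 16.9 CPM in wild type and 7.12 and 7.01 CPM in mutant larvae, 40.8% of the wild type mean. The gene klp-16, a minus-end-directed kinesin of the spindle, went from 14.8 and 14.8 CPM to 6.22 and 5.53 CPM. The closely similar klp-15 may share reads with it, and was at 6.47 ± 0.16 and 3.52 ± 0.62 CPM, which DESeq2 did not call (adjusted p = 0.0975). The kinesin light chain gene klc-1, which links the kinesin-1 motor to cargo, had the widest replicate gap of these genes and the ratio nearest to the limit. It was at 17.7 and 13.7 CPM in wild type and 7.53 and 6.24 CPM in mutant larvae.

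Metabolic and mitochondrial genes made up 8 members. The acyl-CoA dehydrogenase gene acdh-3, whose enzyme class takes the first step of fatty acid oxidation, was at 100.5 and 95.7 CPM in wild type and 38.1 and 41.1 CPM in mutant larvae, 40.4% of the wild type mean. Per kilobase of gene model it was the most abundant member, at 65.2 CPM per kilobase (RPKM) in wild type. The gene slc-25A32, related to the mammalian mitochondrial carrier of folate and FAD, was at 12.4 and 14.6 CPM against 4.47 and 4.70 CPM. The gene umps-1 encodes the enzyme that completes UMP in pyrimidine synthesis, and went from 25.97 and 25.22 CPM to 10.8 and 12.2 CPM. In nmrk-1, a nicotinamide riboside kinase gene of NAD+ salvage, the wild type values of 39.4 and 35.8 CPM compared with 18.6 and 16.4 CPM. In these 4 genes the wild type replicates were within 20% of each other.

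The 4 remaining metabolic members had ratios close to the limit, between 0.530 and 0.547. The gene pgm-3, related to the mutase that makes N-acetylglucosamine 1-phosphate, was at 13.7 and 13.6 CPM in wild type and 6.88 and 7.21 CPM in mutant larvae. The gene eng-1, which encodes an endo-beta-N-acetylglucosaminidase that releases N-glycans, was at 12.2 and 12.3 against 6.46 and 6.01 CPM. It had the lowest wild type mean of all members. The succinyl-CoA ligase gene sucl-2, of the citric acid cycle, varied most between wild type replicates, at 35.6 and 49.6 CPM against 16.2 and 19.4 CPM. The gene dars-2, an aspartyl-tRNA synthetase gene of mitochondria, was at 23.8 and 24.9 CPM against 13.0 and 13.0 CPM. With counts scaled by TMM or by DESeq2 size factors, both sucl-2 and dars-2 went just past the limit and were no longer members.

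Of the 30 tested aminoacyl-tRNA synthetase genes other than dars-2, 29 were below 0, with a median log2 fold change of -0.30. DESeq2 called 4 of these lower and 0 higher, and edgeR called 0. Its lower calls were 1.92% of all tested genes and 3.28% of those at the wild type level by DESeq2. The largest change among the 4 was in lars-2, the mitochondrial leucyl-tRNA synthetase gene, from 95.9 to 52.8 CPM (DESeq2 adjusted p = 3.06e-06). The cytosolic gars-1 also fell, from 228.1 to 144.7 CPM (DESeq2 adjusted p = 0.00145). Of the 5 calls with dars-2, 1 was made without wild type replicate 1, 0 without wild type replicate 2, and 1 each without the mutant replicates. The mitochondrial ribosome list had 61 of 69 genes below 0 and a median of -0.20, with 0 calls by either tool. In fatty acid oxidation, 19 of 39 genes other than acdh-3 were below 0, and the median was 0.02. DESeq2 called 4 of these lower, including the enoyl-CoA hydratase gene ech-6 (110.5 to 63.8 CPM, DESeq2 adjusted p = 1.50e-05), and 2 higher. Leaving out wild type replicates 1 and 2 and mutant replicates 1 and 2 in turn gave 2, 1, 1 and 3 lower calls there, acdh-3 included, against 5 with all libraries. Of 16 nucleotide synthesis genes other than umps-1, 13 were below 0, with a median of -0.15. The 2 DESeq2 calls were umps-1 and tyms-1, and 1 was left without either wild type library. The gene tyms-1 met the numbers of the rule, was left out by name and is kept in these counts.

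Of the other named members, uad-2 encodes a factor of piRNA transcription in the germline, and imb-2 an importin of the transportin type that carries proteins into the nucleus. The gene uad-2 was at 21.4 and 19.9 CPM in wild type and 7.46 and 7.12 CPM in mutant larvae, 35.3% of the wild type mean. The gene imb-2 was at 103.2 and 109.5 CPM against 55.4 and 51.3 CPM. It was the second most abundant member by CPM and was reduced less than uad-2, to 50.2% of the wild type mean. The gene supr-1 lay between 30.8 and 31.8 CPM in wild type and at 16.8 and 16.9 CPM in mutant larvae, the highest share of the wild type mean among the members.

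The small RNA list of the germline, to which uad-2 was not assigned, had 51 of 55 tested genes below 0 and a median log2 fold change of -0.40. DESeq2 called 14 lower and 1 higher and edgeR called 0. Among all tested genes DESeq2 called 1.92% lower, and among those at the wild type level 3.28%. The lowest adjusted p values were those of drh-3 and rrf-3. Like znfx-1, rrf-1 and sid-1, also called, they meet the numbers of the rule and were left out by name. All of these were chosen by the same contrast and are kept in the counts of this list. The list's calls therefore cannot be set against the shares of all genes. The called genes dcr-1 and prg-1 are left out by name too, but do not meet the numbers. The lower calls numbered 7, 5, 6 and 7 when wild type replicates 1 and 2 and mutant replicates 1 and 2 were left out in turn. The germ granule and germline identity list had a median of -0.17, and 2 of its 40 genes fell. They were car-1 and met-1, the latter being the gene mutated in the strain itself. Without wild type replicate 1, wild type replicate 2 or mutant replicate 2 none of these were called (0 genes), and without mutant replicate 1 there was 1 call. In the list of oocyte and early embryo RNA-binding proteins, 24 of 25 genes were below 0 and mex-6, a name the rule leaves out, fell, with a median of -0.91. Without mutant replicate 1, DESeq2 called 5 lower there, and without wild type replicate 1 or mutant replicate 2 it called 0.

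The remaining lists held no member (0 genes) and few calls. All 14 of the other RNA-modifying enzymes were below 0, with a median of -0.27 and 0 calls by either tool. Of 11 protein methyltransferases outside the SET family, vkmt-1 and prmt-7 fell, the median was -0.12, and 0 calls were left without either wild type library or mutant replicate 1 and 1 without mutant replicate 2. In one-carbon and methionine metabolism, with 22 genes and a median of -0.05, dao-3 rose, and 0 calls were left when any 1 library was omitted. The 65 genes of the spliceosome and mRNA 3' end had a median of -0.03 and 0 calls. Of 47 cullin ligase genes skr-17 fell and cul-6 rose, with a median of -0.03, and neither was called when any 1 library was omitted. Of 46 ABC transporter genes pgp-11 and mrp-5 fell and pgp-8 rose, with a median of -0.01. No lower call was left when any 1 library was omitted (0 genes), and without mutant replicate 2 there were 3 higher calls.

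A further 8 members carry only a sequence name or identifier, and no role is given for them here. They include the deepest reductions. Y57G11C.36 was at 15.2 and 13.4 CPM in wild type and 4.26 and 3.93 CPM in mutant larvae, the lowest share of the wild type mean at 28.7%. Its 124 reads in mutant replicate 1 were the fewest of any member in any library, a counting error of 8.98%. ZK973.1 went from 41.1 and 39.6 CPM to 14.4 and 9.46 CPM, so its mutant libraries differed more than its wild type ones. Y48G1A.1 was at 19.1 and 24.7 CPM against 5.43 and 7.61 CPM. F59A3.2 had nearly equal mutant values, 6.71 and 6.64 CPM, after 18.5 and 22.7 CPM in wild type. F54E12.2 was at 39.8 and 34.2 CPM against 15.96 and 14.27 CPM. C44E4.5 and Y56A3A.31 were reduced least of these, to 47.8% and 50.3% of wild type means of 17.8 and 20.7 CPM.

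Several genes lay close to the limits. Just inside the ratio of 0.55 were dars-2 at 0.547, supr-1 at 0.547 and klc-1 at 0.548. Just outside were cps-6 at 0.557, chp-1 at 0.558 and apc-2 at 0.559. Below the limit on level, trmt-10C.1 met the ratio with 0.253, but one of its wild type libraries was at 9.66 CPM. It is related to the human mitochondrial tRNA methyltransferase TRMT10C, and went from 12.8 and 9.66 CPM to 2.27 and 2.45 CPM, 21.03% of the wild type mean (log2 fold change -2.29, SE 0.23). It is therefore not a member with counts scaled to library totals, although its reduction was deeper than that of any member. With TMM or DESeq2 size factors it met both limits. M18.3, at 9.63 CPM in its lower wild type library, was outside and met the limits under those factors in the same way. The gene fog-1 was below 10 CPM in both wild type libraries, at 9.35 and 9.66 CPM, and stayed outside. The list of tRNA and rRNA methyltransferases had no member (0 genes). Of its 14 tested genes 12 were below 0, with a median of -0.21, and trmt-10C.1 and nsun-4 fell by DESeq2 (adjusted p = 7.33e-10 and 0.0157). The 2 calls became 1 without either wild type library or mutant replicate 1.

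**Figure D2:**
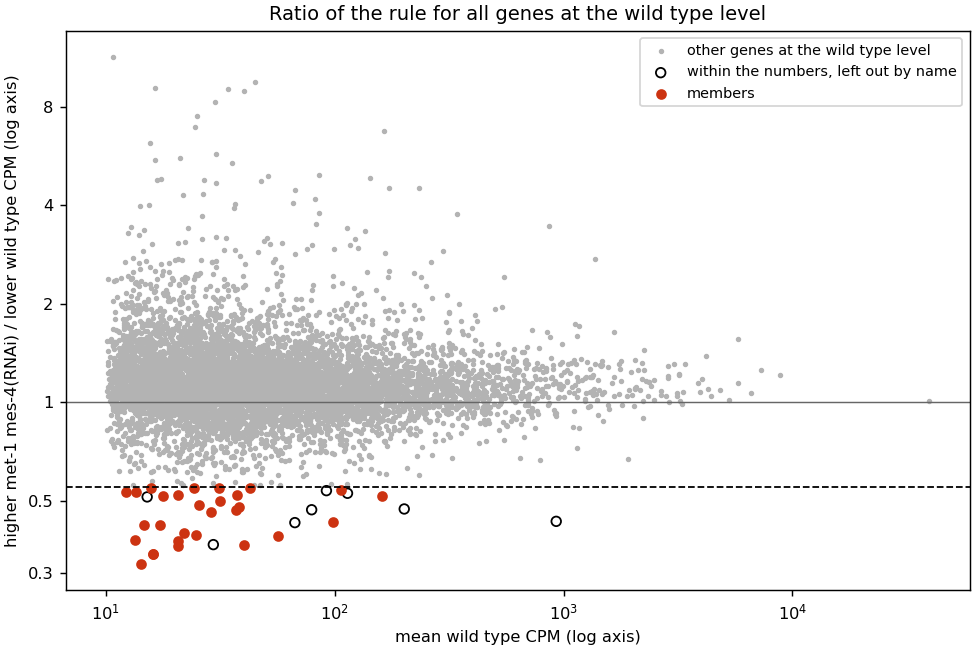
The ratio of the rule, the higher mutant CPM over the lower wild type CPM, against the mean wild type CPM for the 7654 genes at the wild type level, both on log axes; the dashed line is 0.55. The 29 members in red lie below it at wild type means of 12.2 to 160.4 CPM, and the 8 open circles are genes left out by name.

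By median, the members were less abundant in wild type than all genes at the stated level and had longer gene models. Their median wild type level was 24.4 CPM, or 11.4 RPKM, against 44.2 CPM and 27.4 RPKM for all genes at the stated level. Their median gene model was 2079 bases, with a range of 1143 to 3514, against 1682.5 for all genes at the level. The rule favours genes whose replicates are close. The median difference between wild type replicates was 0.07 on the log2 scale for the members and 0.15 for all genes at the level, and 0.11 against 0.17 between mutant replicates.

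The rule did not use position, and the members were unevenly spread over the chromosomes. Of the 28 with a location, 13 were on chromosome I, 3 on II, 5 on III, 6 on IV, 1 on V and 0 on X. Chromosome I thus held 46.4% of the members and 18.1% of the genes at the level, and X held 0% and 13.98%. Of the 8 genes left out by name, 5 were on chromosome I. Among the 17 genes at the wild type level that were higher by the mirrored rule, 2 were on chromosome I, 4 on II, 1 on III, 4 on IV, 4 on V and 2 on X. The median log2 fold change of all genes at the level was -0.10 on chromosome I and -0.06 elsewhere. No test of these shares was made, and members that lie next to each other are not independent.

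**Figure D3:**
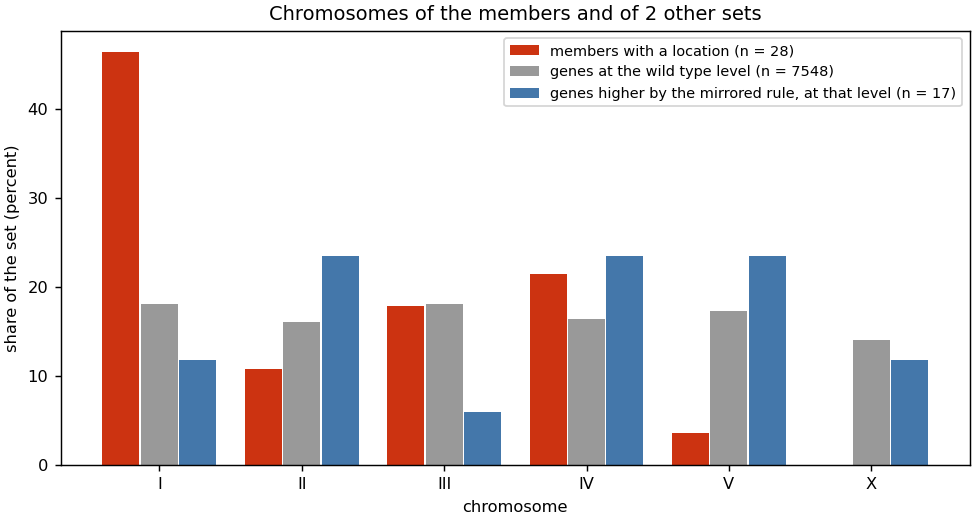
Share of each set on each chromosome, in percent, for the 28 members with a location (red), the genes at the wild type level (grey) and the 17 genes at that level that were higher by the mirrored rule (blue). The red bar is highest on chromosome I, at 46.4%, and absent on X.

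The mutated gene met-1 is itself on chromosome I. In the order of the 2766 protein-coding genes counted there, members lay at a median of 370 genes from met-1, against 685 for the genes at the level. The nearest was ZK973.1, 19 genes away, and the farthest lonp-1, 1373 genes away. C44E4.5 was 60 and app-1 127 genes away. On one side of met-1 lay 11 members and 1049 genes at the level, and on the other 2 members and 313 genes at the level. The part of this position in the result was not tested.

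Some members were direct neighbours. F59A3.2 and rpa-4 lie side by side on opposite strands, with their starts facing each other, and so do uad-2 and cdc-25.1. The genes pgm-3 and otub-3 follow each other on the same strand. ZK973.1 is followed on the same strand by dhc-1, which met the numbers of the rule and was left out by name. The methyltransferase gene vkmt-1, just upstream of ltah-1.1 on the same strand, fell from 9.22 to 2.84 CPM (DESeq2 adjusted p = 2.93e-05) and was below the limit on level.

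The non-member genes next to the members were mostly lower as well. Of 30 such neighbours at the wild type level, 26 had a log2 fold change below 0, with a median of -0.37. Among neighbours of all other genes at the level, 64.8% of 5835 were below 0 and the median was -0.08. The neighbours' values did not enter the rule, but dhc-1 was among them. In the 21 neighbours whose gene models do not overlap a member the median was -0.40. On chromosome I the median of 10 neighbours was -0.55, and on the other chromosomes the median of 20 was -0.34. Of 47 tested neighbours at any level DESeq2 called 7 lower (14.89%) and 0 higher, and edgeR called 0. Over all tested genes DESeq2 called 1.92% lower, and over those at the wild type level 3.28%. The 7 were dhc-1, vkmt-1, smn-1, rabn-5, F10C2.5, F23H11.2 and Y56A3A.30. Of these dhc-1 met the numbers of the rule, so its call follows from the same contrast. Without wild type replicate 1 or 2 or mutant replicate 1 there was 1 call each, and without mutant replicate 2 there were 3. Of the members, 12 overlap another protein-coding gene, mostly on the opposite strand, and since the strand setting of the counting is not given, reads of such pairs may be shared.

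**Figure D4:**
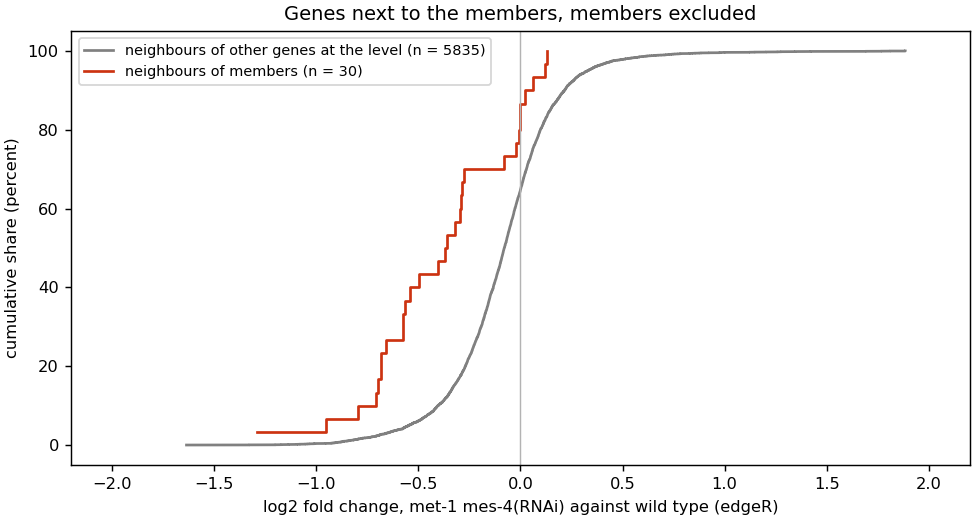
Cumulative share, in percent, of genes by log2 fold change for the 30 non-member neighbours of members at the wild type level (red) and the 5835 neighbours of other genes at the level (grey). The red curve lies to the left, with a median of -0.37 against -0.08.

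Genes of the same symbol family mostly did not share the reduction. For 14 members the table held 48 relatives with the same symbol stem, of which 44 were tested. Their median log2 fold change was -0.08, with 29 below and 15 above 0. DESeq2 called 2 of them lower and 0 higher, and edgeR called 0. The share called lower by DESeq2 was 1.92% of all tested genes and 3.28% of those at the wild type level. The 2 calls were ltah-1.2, from 103.3 ± 12.9 to 71.7 ± 9.34 CPM (SD, n = 2; DESeq2 adjusted p = 0.0304), and acdh-13, from 87.4 ± 17.6 to 49.1 ± 7.16 CPM (DESeq2 adjusted p = 0.0104). Without wild type replicate 1 or mutant replicate 2 there was 1 such call, and 0 without either of the other libraries.

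Single pairs illustrate the spread within families. The peroxisomal relative of lonp-1, lonp-2, had a log2 fold change of 0.11 (SE 0.32), compared with -1.12 (SE 0.13) for lonp-1. The kinesin light chain gene klc-2, the more abundant of the pair at 134.8 CPM in wild type, was at 0.03 (SE 0.10), and klc-1 at -1.24 (SE 0.19). The values for sucl-1 and sucl-2 were 0.00 (SE 0.17) and -1.31 (SE 0.23). The cytosolic dars-1 was at -0.14 (SE 0.14) and lig-1, the replicative DNA ligase gene, at -0.18 (SE 0.11). In these pairs the standard errors of the 2 genes did not meet, but the difference itself was not tested, and the members were chosen for their low values.

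**Figure D5:**
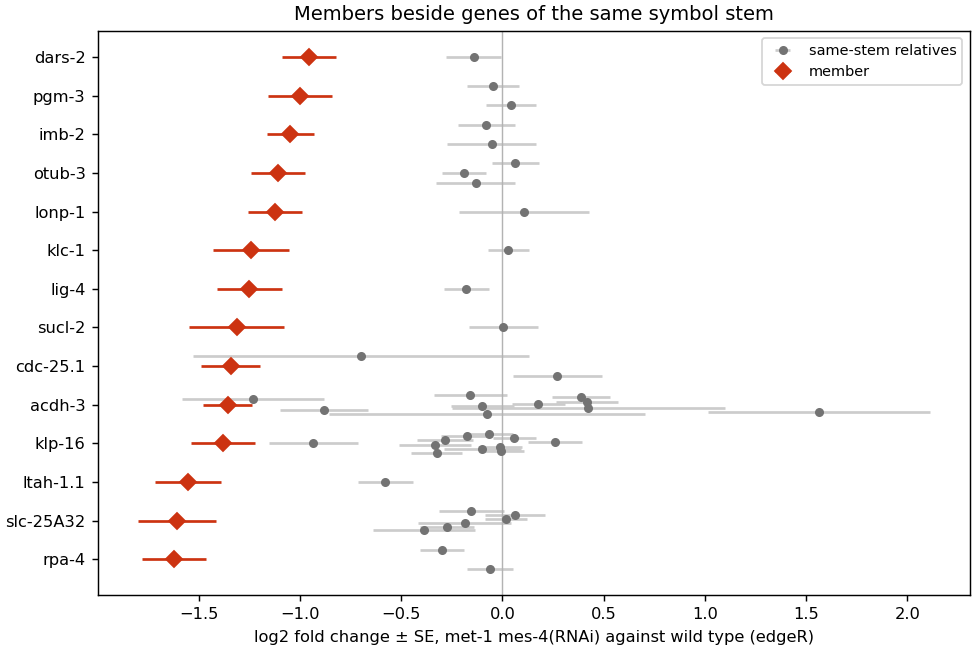
Log2 fold change with its standard error from the edgeR fit for the 14 members with relatives (red diamonds) and their tested relatives of the same symbol stem (grey circles). Most grey points lie near 0, with a median of -0.08, and the members between -1.62 and -0.96.

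When only the replicate 1 libraries were used to choose genes by the same limits, 98 genes passed, and in the replicate 2 libraries all 98 were lower, 51 of them again at 0.55 or less, with a median ratio of 0.543 against 0.487 in the libraries that chose them. The replicate 2 libraries alone took 66 genes, and in the replicate 1 libraries all 66 were lower, 40 of them at 0.55 or less, with a median ratio of 0.519 against 0.494. Both sets hold all 29 members by construction, so 29 of the 51 and 29 of the 40 were fixed by the rule. The same 29 of the 98 and of the 66 were also bound to be lower in the other replicate. They enter the median ratios of 0.543 and 0.519. The share of all genes at the level that were lower in 1 replicate was not worked out. These counts therefore have no background beside them.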

How the data were processed

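The authors deposited raw counts per gene for 20392 WormBase identifiers in 4 libraries, with gene model lengths, and a table of log2 values. The deposited log2 values equal log2(count × factor + 8) with 1 factor per library, worked out from the values. Per the submitters' processing notes the genome build was ce10. The aligner, the counter, the gene annotation and whether strand was used: not given in the sources used here. All per-sample columns were used.

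Symbols for 19182 identifiers came from a name table, and chromosomes and gene order (protein-coding genes only) from Ensembl release 115 (WBcel235). As that build differs, no coordinates are printed. No sequence was used.

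CPM were counts over library totals, and RPKM divided them by length. Counts of 15008 genes (filterByExpr) were fitted with edgeR 4.0.16 (quasi-likelihood F-test, TMM, no block) and, as an alternative, DESeq2 1.42.0 (Wald test), in R 4.3.3, both adjusted by Benjamini-Hochberg and called at 0.05. The fits were tested on simulated data. Standard errors are the fold change over the square root of F. The series text describes the 2 samples of a group as biologically independent.

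The members, the 16 lists and the rule for named genes were chosen with earlier results of these data known. Named were app-1 and trmt-10C.1, all members, the genes next to the limits, and up to 2 called non-members per list. Relatives, neighbours and partner genes were added once the members were known. At 10 CPM a gene rests on 290.8 to 351.1 reads per library.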

Additional observations from a re-analysis of the deposited data

How the results depend on the processing

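The number of members followed its limits. It was 18 with a ratio of at most 0.5, 47 with 0.6, 44 with a wild type minimum of 5 CPM and 16 with 20 CPM. Leaving out 1 library, which by construction can only add genes, gave 45 to 64, and the replicate 1 or 2 libraries alone 98 or 66. TMM gave 34 and DESeq2 size factors 35, each with 27 of the 29. The median ratio of the members, 0.466, was 0.422 to 0.454 without 1 library, where it can only become lower for given members. The members' log2 fold changes ranged from -2.11 to -0.89 over 14 alternatives, and their sign is fixed by the choice of members.

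Calls depended on the tool. Over the whole table edgeR gave 0, but 128 (88 higher, 40 lower) without a filter, 2 with a filter of 5 CPM, and 0 to 35 without 1 library. DESeq2 gave 655. Leaving out wild type replicates 1 and 2 and mutant replicates 1 and 2 in turn, an alternative added after seeing the data, it gave 198, 152, 209 and 176. With the replicate block edgeR called 3047. The labels give only a shared number for the pairing, and differences between replicates 1 and 2 of both groups correlated at 0.646 across genes. In the 16 lists together edgeR gave 0, 16 without a filter, 1 with a filter of 5 CPM, 212 with the replicate block and 0 to 2 without 1 library. DESeq2 gave 60, and 19, 15, 24 and 26 in the same order. With 2 libraries per group, a gene that was not called is not shown to be unchanged.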
